A study of Mus musculus with 8 samples.

Results

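The interferon response genes are a set of 36 genes that type I and type II interferons switch on, from the sensors of viral RNA to the enzymes that act against viruses. They were chosen by gene symbol, and 35 of the 36 had a row among the 18860 genes of each table. The remaining one, Psmb9, was not analysed here. All 35 passed the filter on low values and were among the 14679 genes tested, so no member entered or left through the filter.

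Total RNA was sequenced from leukaemia cells of the bone marrow of moribund C57BL/6 mice, which the labels call acute myeloid cells and describe as 4 lines per cohort. In the 4 libraries of the 11B3-deleted group the genotype was 11B3fl/p53fl;shNf1;shMll3;Vav1-Cre, in which 1 chromosome 11 can lose the 11B3 interval with Trp53 inside it and the other the floxed Trp53 allele. The 4 libraries of the p53-loss-only group were p53fl/fl;shNf1;shMll3;Vav1-Cre, with floxed Trp53 on both chromosomes. All 8 leukaemias thus carried Vav1-Cre, a recombinase driven by a promoter active across blood cells. All of them also carried hairpins that knock down Nf1, which switches Ras off, and Mll3, which methylates histones. No group kept Trp53 intact, the labels name no treatment, and normal marrow was not analysed here. The labels give neither ages nor separate animals, so a p-value here reflects the spread from library to library, which may be technical.

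The tables held 30502718 to 35719495 reads per library. Each value below is a deposited value, which is reads divided by a library's size factor plus 1; at that depth 3 reads gave values of 3.66 to 4.29. Trp53 stood at 189.2 to 392.5 in the 11B3-deleted and 300.2 to 577.1 in the p53-loss-only libraries, so its transcripts did not separate the groups. Markers of the labelled myeloid cell type were abundant in all 8 libraries: Mpo, the granule peroxidase, lay between 75329 and 414041 and Spi1, a myeloid transcription factor, between 6670 and 8200. The library 11B3-deleted 3 stood apart, since its 10 B cell markers summed to 54885 against 404.6 to 2200 in the other 7. Results are therefore also given without it. In 11B3-deleted 1 the 10 erythroid markers summed to 189133, against 2773.2 to 51447.1 in the other 7.

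Interferons are secreted when a cell senses foreign or misplaced nucleic acid. They bind receptors whose kinases phosphorylate transcription factors, among them Stat2, and Stat2 joins Irf9 in a complex that binds the interferon-stimulated response element (ISRE) in the promoters of its targets. Irf7, itself a target, amplifies the response, and blood cells keep a low level of many of these transcripts without infection. In bulk RNA, fewer cells of a responding type and less RNA per cell cannot be told apart.

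Promoter sequences in the RefSeq table (build GRCm38.p6, from 250 bases before to 50 after a gene's start) were found for 28 of the 36 genes. ISRE letters, taken as GAAA followed after any 2 bases by another GAAA, on either strand, were in 15 of these 28 (53.6%), against 3.99% of 27025 genes with a window of that length. The letters of the gamma-activated sequence (GAS), TTCNNNGAA, on either strand, were in 7 of 28 (25%) against 9.55% of genes. Overlapping matches count once per gene, and a match describes letters only. The windows of 6 members whose values are given below are printed 5′ to 3′ on the gene's strand, with every ISRE match in capitals, because they show how differently placed the same letters are.

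Isg15, chr4:156200769-156201068, minus strand: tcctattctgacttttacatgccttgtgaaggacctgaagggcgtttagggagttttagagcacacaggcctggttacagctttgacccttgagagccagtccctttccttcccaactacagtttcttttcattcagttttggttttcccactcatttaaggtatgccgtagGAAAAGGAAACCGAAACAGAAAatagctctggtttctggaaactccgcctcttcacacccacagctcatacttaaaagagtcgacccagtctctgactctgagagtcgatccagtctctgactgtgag
Irgm1, chr11:48871371-48871670, minus strand: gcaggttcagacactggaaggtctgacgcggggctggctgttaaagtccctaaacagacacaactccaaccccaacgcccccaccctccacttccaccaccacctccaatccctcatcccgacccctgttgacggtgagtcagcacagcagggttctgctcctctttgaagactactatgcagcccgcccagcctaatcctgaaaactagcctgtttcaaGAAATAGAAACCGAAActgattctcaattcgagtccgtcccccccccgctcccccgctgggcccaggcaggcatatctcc
Gbp3, chr3:142559794-142560093, plus strand: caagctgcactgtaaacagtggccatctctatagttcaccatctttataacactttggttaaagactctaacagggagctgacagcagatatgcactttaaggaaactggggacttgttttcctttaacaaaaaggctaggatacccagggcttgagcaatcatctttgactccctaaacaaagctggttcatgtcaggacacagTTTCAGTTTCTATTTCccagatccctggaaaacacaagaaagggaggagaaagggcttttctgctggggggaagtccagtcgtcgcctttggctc
Igtp, chr11:58199306-58199605, plus strand: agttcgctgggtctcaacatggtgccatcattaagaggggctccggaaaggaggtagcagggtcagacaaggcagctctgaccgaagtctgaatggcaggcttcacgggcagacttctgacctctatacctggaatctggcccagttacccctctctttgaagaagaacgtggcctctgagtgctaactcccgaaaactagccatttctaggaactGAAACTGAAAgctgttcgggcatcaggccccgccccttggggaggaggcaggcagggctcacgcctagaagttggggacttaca
Stat2, chr10:128270248-128270547, plus strand: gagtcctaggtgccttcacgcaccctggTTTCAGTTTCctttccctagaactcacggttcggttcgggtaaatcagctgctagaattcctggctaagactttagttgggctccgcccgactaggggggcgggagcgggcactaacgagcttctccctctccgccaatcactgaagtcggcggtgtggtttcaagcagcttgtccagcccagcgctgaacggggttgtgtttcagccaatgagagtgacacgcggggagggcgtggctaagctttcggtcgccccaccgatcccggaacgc
Ddx58, chr4:40239776-40240075, minus strand: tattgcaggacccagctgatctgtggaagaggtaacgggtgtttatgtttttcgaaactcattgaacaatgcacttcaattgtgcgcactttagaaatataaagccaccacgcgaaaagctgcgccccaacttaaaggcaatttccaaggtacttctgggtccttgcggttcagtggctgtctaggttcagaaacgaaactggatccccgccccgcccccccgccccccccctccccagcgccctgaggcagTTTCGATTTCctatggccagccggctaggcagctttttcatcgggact

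Isg15 holds 3 overlapping matches from 78 to 66 bases before its start, and Irgm1 and Gbp3 hold 2 overlapping ones each. Igtp has a single match 34 bases before its start, Stat2 one 222 bases before it, and Ddx58 one 2 bases after it. The builds of the tables and of these windows differ, so no coordinate was carried between them.

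The 35 genes were set to different levels in the 8 leukaemias, and the same libraries were high or low for most of them. Each gene was set against its own mean log2 value over the 8 libraries, and the median over the 35 genes was taken in each library. That median was -0.44, -0.34, -0.51 and 1.15 in 11B3-deleted replicates 1 to 4 and 0.82, -0.24, 0.45 and -1.17 in the p53-loss-only ones, values that below always follow this order. A library of each genotype was therefore high, and the lowest of all shared the genotype of the second highest. Over all tested genes the same median lay between -0.01 and 0.01 in every library.

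**Figure D1:**
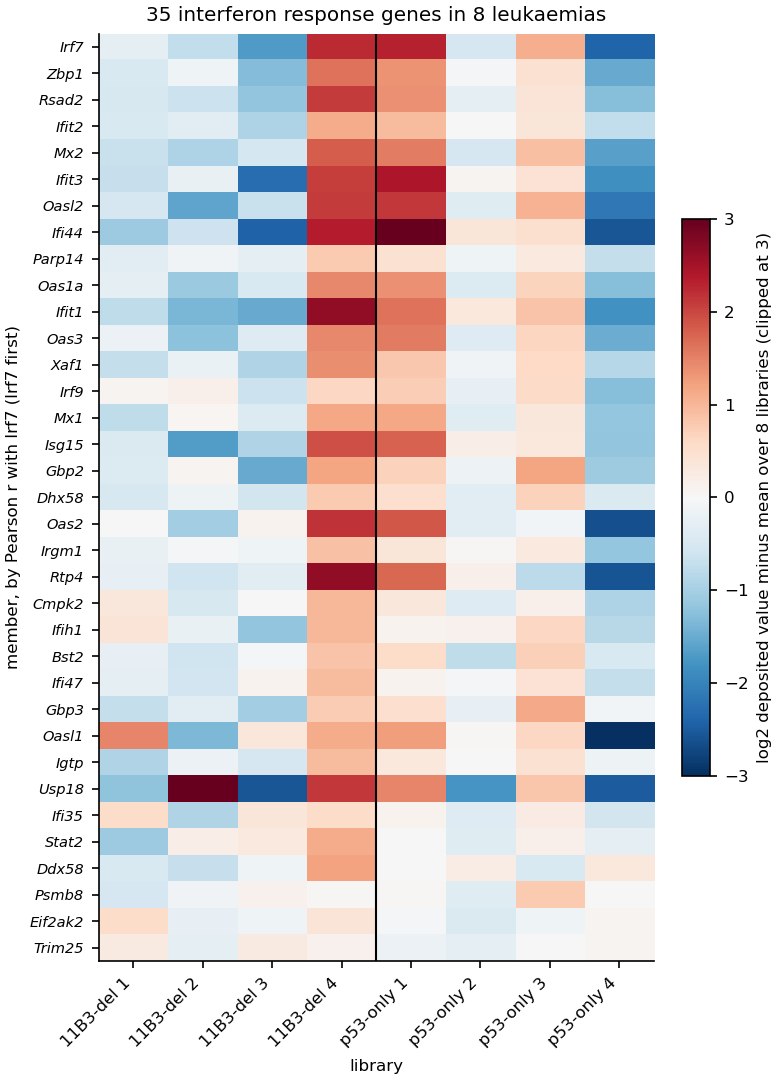
Log2 deposited value of each of the 35 genes minus its own mean over 8 libraries (colour, red higher and blue lower, clipped at 3), with libraries in columns and genes in rows ordered by their Pearson correlation with Irf7. The columns of 11B3-deleted 4 and p53-loss-only 1 are red and that of p53-loss-only 4 blue for most genes, while the lowest rows, from Usp18 to Trim25, break the pattern.

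The library 11B3-deleted 4 held the highest value of 20 of the 35 genes and p53-loss-only 1 that of 7. Either of them was thus highest for 27, against 17.3% of all tested genes, and they were the top 2 for 19 of the 35, against 3.97% of all. The lowest value lay in p53-loss-only 4 for 18 genes (51.4%, against 17.3% of all genes). It lay in 11B3-deleted 3 for 8 (22.9%, against 13.8% of all). Highest over lowest was 4.93-fold in the median gene and 2.45-fold over all genes. It reached 4-fold for 24 of the 35 genes (28.3% of all genes) and 10-fold for 12 (11.4% of all), with Usp18 (72.9-fold) and Ifi44 (66.3-fold) at one end and Trim25 (1.49-fold) at the other.

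Between the genotypes, no member differed beyond the spread of its libraries. With limma on the log2 values, 0 of the 35 had an adjusted p under 0.05, beside 2 of all 14679 genes (0.0136%). At an unadjusted p under 0.05 the count was also 0 (3.56% of all genes), and DESeq2, edgeR and limma voom on the recovered reads each called 0 members (0.395%, 0.00681% and 0% of all genes). The smallest unadjusted p was 0.16, for Gbp3, and adjusted p ran from 0.996 to 0.999. No member had groups that did not overlap, as 2.15% of all genes did.

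The mean was lower in the 11B3-deleted group for 21 members and higher for 14, where 48.4% of all genes were lower and 51.6% higher. That split rested on single libraries: 29 were lower without 11B3-deleted 4, 9 without p53-loss-only 1 and 13 without 11B3-deleted 3. The median log2 difference, 11B3-deleted minus p53-loss-only, was -0.10 for the members and 0.01 over all genes. Genotype held a median of 3.23% of a member's variation in log2 value, against 7.58% for all genes.

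The data do not show that the genotypes are alike. The 95% intervals from limma lay inside -1 to 1 for 7 of the 35 genes, against 52.4% of all tested genes. For the other 28 a change of 2-fold or more in one direction was inside the interval. Trim25, with an interval of -0.19 to 0.59, was bounded most closely, and Usp18, at -2.24 to 4.21, least.

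**Figure D2:**
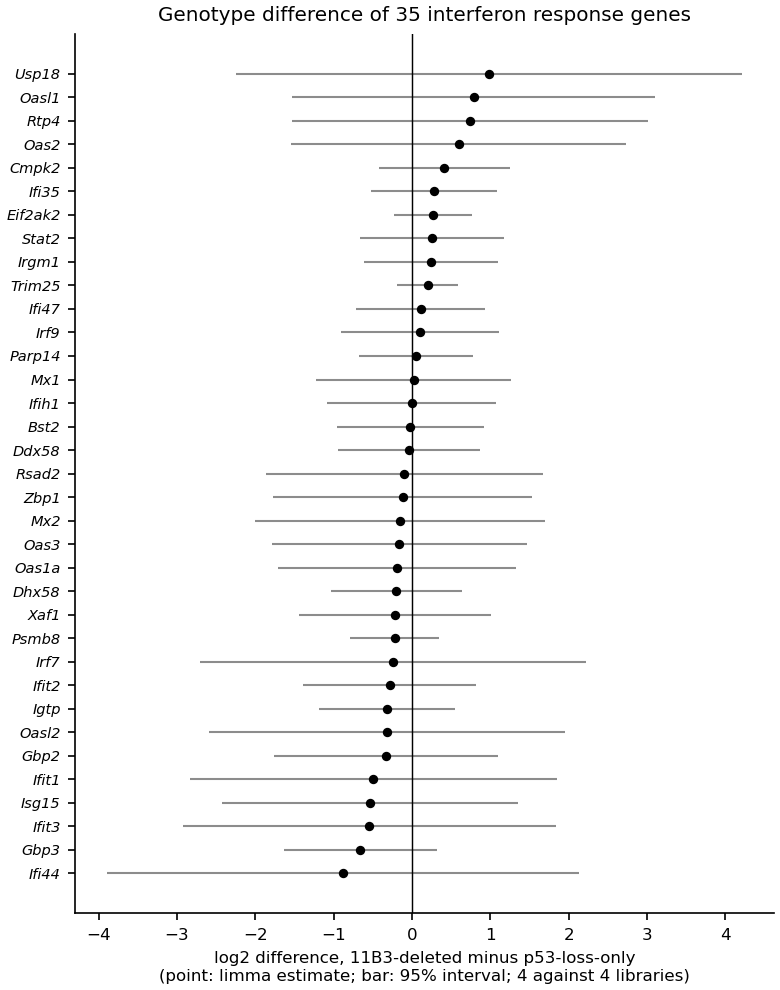
Log2 difference of each of the 35 genes, 11B3-deleted minus p53-loss-only (point, limma estimate), with its 95% interval (bar), n = 4 libraries in each group. All 35 intervals include 0, and the estimates run from -0.88 for Ifi44 to 0.98 for Usp18.

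Among the transcription factors, Irf7, the amplifier of the type I response, spanned 26.3-fold. Its values were 424.7, 304.5, 156.1 and 2402.7 in 11B3-deleted replicates 1 to 4 and 2549.9, 357.9, 1078.9 and 96.8 in the p53-loss-only ones, in that order of replicate. The highest and the lowest library were both p53-loss-only, and the groups overlapped over nearly the whole range. The log2 difference was -0.24 (SE 1.09, 95% interval -2.71 to 2.22).

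Irf9, the DNA-binding subunit of the complex with Stat2, gave 2274.8, 2356.7, 1358.9 and 3269.8 in the 11B3-deleted and 3570.5, 1812.0, 3149.1 and 879.5 in the p53-loss-only libraries. It was highest in the same 3 libraries as Irf7 and lowest in the same 2, over a narrower range of 4.06-fold, and differed by 0.10 (SE 0.45) on the log2 scale. With DESeq2 and edgeR that sign was negative, at -0.02 and -0.03. Stat2, its partner, gave 982.2, 2404.0, 2565.7 and 4572.7 against 2118.8, 1622.1, 2344.3 and 1715.5. Both its highest and its lowest library were 11B3-deleted, and p53-loss-only 1, the highest for Irf7, was in the middle; the log2 difference was 0.25 (SE 0.41).

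The ISG15 system showed 3 different patterns. Isg15, a ubiquitin-like protein that is attached to others after interferon, gave 113.3, 48.3, 81.4 and 584.1 in the 11B3-deleted and 526.3, 175.3, 189.6 and 67.0 in the p53-loss-only libraries. Its top 2 libraries were those of Irf7, and the log2 difference was -0.54 (SE 0.84). Usp18, which removes Isg15 from proteins and damps the type I receptor, gave 69.3, 1980.0, 27.2 and 701.3 against 440.9, 46.9, 288.3 and 28.7. Here 11B3-deleted 2 was the highest library, the one in which Isg15 was lowest. The log2 difference of 0.98 (SE 1.43) became -0.06 without that library, 2.003 without 11B3-deleted 3, 1.80 with DESeq2, 1.78 with edgeR and -0.12 with limma voom and sample weights.

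Trim25, a ubiquitin ligase that acts on the RNA sensor Ddx58, gave 6106.8, 4121.5, 6059.9 and 5531.2 against 4455.1, 4104.6, 4973.7 and 5353.2. It was the steadiest member, its lowest values lay in replicate 2 of each group, and the log2 difference was 0.20 (SE 0.17).

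**Figure D3:**
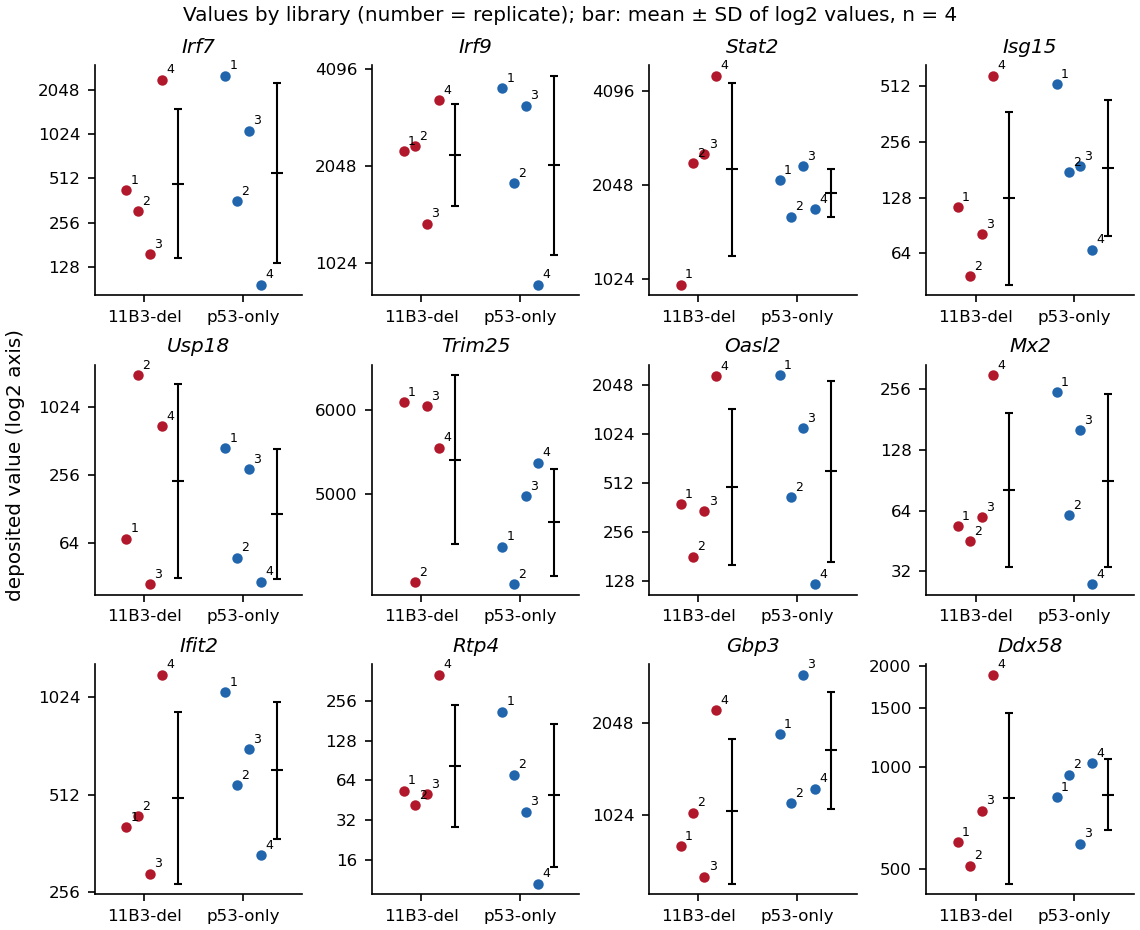
Deposited values of 12 of the genes on log2 axes, 1 panel per gene, with 1 point per library labelled by replicate (red 11B3-deleted, blue p53-loss-only) and the mean ± SD of the log2 values, n = 4. Replicate 4 of the 11B3-deleted and replicate 1 of the p53-loss-only group are high in most panels, Usp18 is highest in 11B3-deleted 2, and the groups overlap in all 12.

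All 4 sensors had a lower mean in the 11B3-deleted group, by 0.01 to 0.20 on the log2 scale, and none passed the test. Ddx58 (RIG-I), a sensor of viral RNA ends, gave 599.5, 511.1, 743.5 and 1882.6 against 816.7, 951.4, 594.2 and 1026.5. Only 11B3-deleted 4 stood out, p53-loss-only 1 and 3 were not raised, and its difference of -0.04 (SE 0.40) turned to 0.14 with DESeq2 and edgeR. Zbp1, a sensor of Z-form nucleic acid that can start cell death, gave 183.6, 229.1, 101.8 and 779.4 against 638.0, 242.3, 343.1 and 87.3. That is nearly the order of Irf7, and the log2 difference was -0.12 (SE 0.73).

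Dhx58, a regulator of the other RNA sensors, gave 717.6, 902.8, 685.3 and 1714.8 against 1423.5, 787.2, 1605.2 and 739.0, a log2 difference of -0.20 (SE 0.37). It was high in the same 3 libraries as Irf7. Ifih1, the sensor of long double-stranded RNA, ranged from 305.4 to 1389.1.

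The 5 oligoadenylate synthetases, enzymes and relatives of enzymes that activate an RNA-degrading nuclease, were the group set farthest apart. Their library medians ran from -2.15 in p53-loss-only 4 to 1.55 in p53-loss-only 1, and 2 were higher and 3 lower in the 11B3-deleted mean. Oas2 gave 496.0, 241.0, 534.1 and 2242.0 against 1822.6, 396.4, 475.8 and 79.8. Its lowest and second highest libraries were both p53-loss-only, and the log2 difference was 0.60 (SE 0.95), or -0.19 without p53-loss-only 4.

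Oasl2 gave 379.8, 180.7, 343.2 and 2331.7 against 2353.8, 419.3, 1112.9 and 122.4, with a log2 difference of -0.32 (SE 1.004). Oasl1, which restrains the translation of Irf7, gave 692.2, 98.9, 318.9 and 542.4 against 595.3, 258.8, 387.0 and 22.3. Its highest library was 11B3-deleted 1, in which Irf7 was not raised. The log2 difference was 0.79 (SE 1.02), or -0.24 without p53-loss-only 4. Oas1a ranged from 208.7 to 1362.5 and Oas3 from 220.4 to 1812.9.

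Of the 9 antiviral effectors, 3 had a higher and 6 a lower mean in the 11B3-deleted group, with log2 differences from -0.54 to 0.41. Ifit2, which binds RNA and blocks translation, gave 405.2, 440.1, 291.8 and 1203.6 against 1065.2, 547.8, 709.4 and 332.2, a difference of -0.28 (SE 0.49). Mx2, a dynamin-like GTPase, gave 53.7, 45.1, 59.2 and 300.1 against 246.7, 60.6, 160.0 and 27.6. A single 11B3-deleted library lay far above the other 3 of its group, and the log2 difference was -0.15 (SE 0.82).

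Eif2ak2 (PKR), a kinase that stops translation on double-stranded RNA, gave 2444.7, 1406.4, 1537.3 and 2194.1 against 1617.7, 1254.2, 1528.5 and 1776.2. It spanned 1.95-fold only, was highest in 11B3-deleted 1, and differed by 0.27 (SE 0.22). Cmpk2, a mitochondrial nucleotide kinase, gave 1236.0, 704.8, 972.2 and 1949.1 against 1234.2, 745.9, 1098.6 and 517.5, a difference of 0.41 (SE 0.37). Ifit1, Ifit3, Mx1, Rsad2 and Bst2 were each highest in 11B3-deleted 4 or p53-loss-only 1, and spanned 3.07-fold (Bst2) to 25.9-fold (Ifit3).

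The 5 interferon-inducible GTPases, from families with members that act on the vacuoles of pathogens, moved over 3.20-fold to 6.52-fold. Gbp3 gave 814.3, 1044.8, 645.6 and 2256.2 against 1879.9, 1120.2, 2935.3 and 1250.1. All 11B3-deleted values but that of replicate 4 lay under all 4 p53-loss-only values, and the log2 difference of -0.66 (SE 0.43) had the smallest p of the set. Irgm1 gave 1129.6, 1291.3, 1201.0 and 2433.7 against 1688.6, 1356.9, 1614.0 and 588.8, with its lowest library at p53-loss-only 4 and a difference of 0.24 (SE 0.38).

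Igtp gave 295.8, 493.9, 391.6 and 1081.1 against 696.2, 565.2, 759.8 and 497.2, a log2 difference of -0.32 (SE 0.38). As with Gbp3, every 11B3-deleted value but that of replicate 4 lay under all p53-loss-only values. With that replicate the groups of both genes overlapped. Without it, 2 of the 35 members had groups that did not overlap. No share over all genes was worked out for that count, so it cannot be judged against a background. Gbp2 ranged from 155.1 to 1010.9 and Ifi47 from 618.6 to 1977.5.

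Psmb8, the one immunoproteasome subunit measured, gave 3795.9, 4992.1, 5909.7 and 5478.0 against 5471.7, 4163.3, 9193.1 and 5409.6. Apart from p53-loss-only 3 its libraries lay close together, and the log2 difference was -0.22 (SE 0.25). Among the remaining induced genes, Ifi44, of little-known function, gave 14.7, 20.4, 5.8 and 160.8 against 348.6, 40.4, 43.8 and 5.3. The highest and lowest libraries were again both p53-loss-only, and the log2 difference was -0.88 (SE 1.33), or 0.13 without p53-loss-only 1.

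Rtp4, a chaperone of membrane receptors, gave 53.7, 41.9, 50.4 and 403.1 against 211.7, 70.7, 37.2 and 10.6. A single 11B3-deleted library was high, and the log2 difference of 0.74 (SE 1.003) was -0.03 without it. Ifi35 gave 1489.9, 538.0, 1300.8 and 1485.0 against 1095.3, 772.5, 1197.3 and 694.2, so that 11B3-deleted 2 was the lowest of all 8; the difference was 0.28 (SE 0.36). Xaf1 ranged from 620.4 to 3059.5 and Parp14, an ADP-ribosyltransferase, from 1644.1 to 4634.8.

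The interval deleted in the 11B3-deleted group holds none of the 36 genes. On chromosome 11, outside it, lie 7: Dhx58, Ifi35, Irgm1, Ifi47, Igtp, Xaf1 and Trim25. The nearest to it, Xaf1, a partner of an inhibitor of cell death, is separated from the Sco1 to Alox12 interval by 46 protein-coding genes in RefSeq order. Of these 7 genes 3 had a lower and 4 a higher mean in the 11B3-deleted group, with log2 differences from -0.32 to 0.28.

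Counting strand use was not given in the sources used here, and in the GENCODE M21 annotation exons of some members overlap other genes. Irf7 overlaps Phrf1 and Usp18 Gm44148 on the other strand, Irf9 overlaps Rnf31 and Igtp Irgm2 on the same strand. Reads of such pairs, and of the near-identical copies within the Oas, Ifit, Gbp and Irg families, could have been assigned in part to the partner.

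Co-variation over the 8 libraries was examined next. Over the 595 pairs of members the median Pearson correlation of log2 values was 0.73, and 53.3% of pairs reached 0.7, against 6.67% of pairs of all tested genes, whose median was -0.0018. With each value centred on its own genotype the median was 0.76, so the correlation was as large within the genotypes. It was 0.77 without 11B3-deleted 3, 0.63 without 11B3-deleted 4, and 0.54 without both that library and p53-loss-only 1. These are descriptions of 8 libraries whose cells may differ in makeup, and carry no test.

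Irf7 was set against each of the other 34 members, 34 relations in all. Pearson r was at least 0.7 for 27 of the 34 (79.4%), against 8.59% of the 14678 other tested genes, and at least 0.9 for 14 (41.2%, against 0.804%). An exact permutation test over all orders of the 8 libraries, two-sided, gave an unadjusted p under 0.05 with a positive r for 27 members (8.08% of all genes). With Spearman's rho the count was 21, for which no share over all genes was worked out. Adjusted over all 14678 genes, 0 of the members and 0 of all genes were under 0.05, and the smallest adjusted p was 0.20.

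The relation held over the rest of the range for part of the set. Without p53-loss-only 1 and 11B3-deleted 4, the 2 libraries farthest from the median of Irf7, r was at least 0.7 for 18 of the 34 (52.9%, against 10.2% of all genes), and the median r was 0.77 (0.88 over 8 libraries). The exact permutation p was then under 0.05 with a positive r for 15 members. No share over all genes was worked out for that count, so it cannot be judged against a background.

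Zbp1 had the highest Pearson r with Irf7 over the 8 libraries, with r = 0.98 and rho = 0.90 (exact permutation p = 0.00047 and 0.0046), and r = 0.94 without the 2 farthest libraries. Rsad2 (viperin), which disturbs viral replication, had r = 0.96 and rho = 0.95 (exact permutation p = 0.00017 and 0.0011) and r = 0.98 without them. Irf9 had r = 0.93 and rho = 0.93 (exact permutation p = 0.00062 and 0.0022) and r = 0.95 without them. For Rtp4, r was 0.84 (exact permutation p = 0.0089) and rho 0.69 (p = 0.069 by the same exact test), and r fell to 0.52 without them, so that relation rested on those 2 libraries.

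The 7 members that did not reach r = 0.7 were Usp18 (0.63), Ifi35 (0.48), Stat2 (0.42), Ddx58 (0.30), Psmb8 (0.24), Eif2ak2 (0.22) and Trim25 (-0.18). Their exact permutation p ran from 0.098 for Usp18 to 0.66 for Trim25. Psmb8, Eif2ak2 and Trim25 were among the members with the narrowest ranges over the libraries. Dhx58 spanned 2.50-fold, beside 2.42-fold for Psmb8, and had r = 0.89. The part of a narrow range in a low r was not tested. For Usp18 r was 0.96 within the 4 p53-loss-only libraries and 0.48 within the 4 of the 11B3-deleted group, and the difference between them was not tested.

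**Figure D4:**
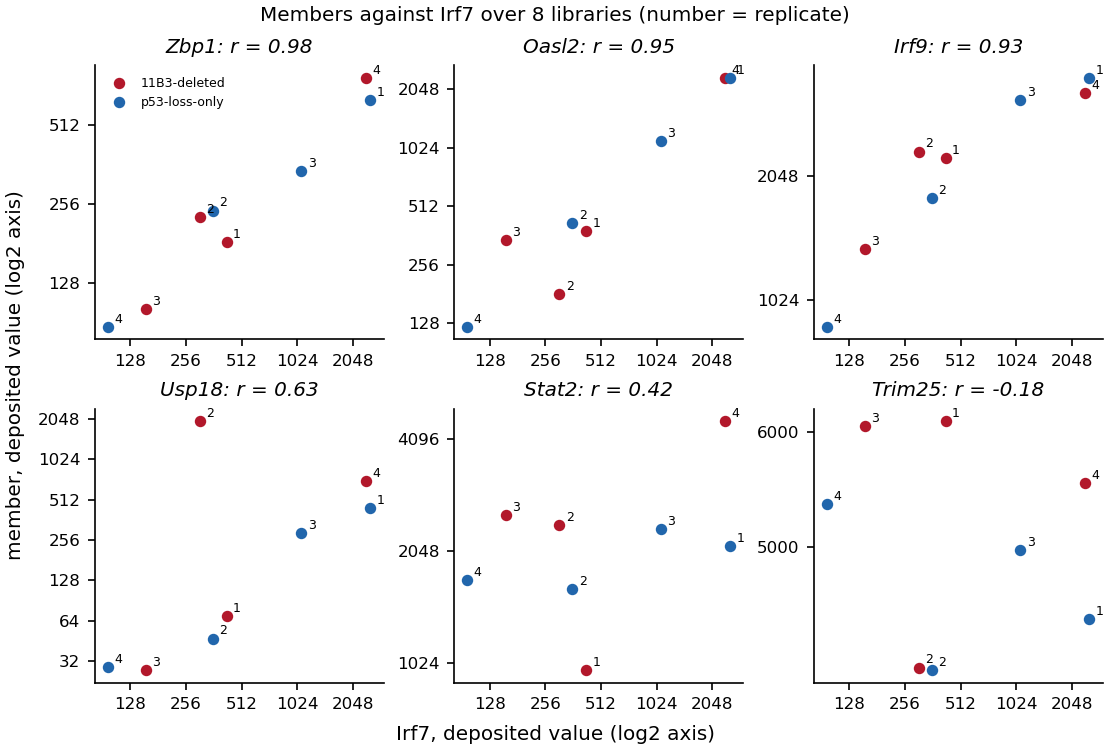
Deposited value of 6 genes against that of Irf7, both on log2 axes, 1 point per library labelled by replicate (red 11B3-deleted, blue p53-loss-only), with Pearson r over 8 libraries above each panel. Zbp1, Oasl2 and Irf9 rise along with Irf7 in both genotypes, Usp18 does so except in 11B3-deleted 2, and Stat2 and Trim25 show no such order.

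The median r with Irf7 was 0.87 for the 15 members with ISRE letters and 0.81 for the 11 others that had both a window and a value. It was 0.90 for the 8 members without a window, whose letters are not known here. A relation between the letters and r was not tested. Isg15 and Irgm1, whose windows are printed above, had r = 0.90 and 0.87, while Stat2 and Ddx58 with the same letters had r = 0.42 and 0.30.

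Other genes of the pathway, from lists that are no part of the 36, were examined for the same 2 questions. None of the 90 such genes tested was called by limma, DESeq2, edgeR or voom (0.0136%, 0.395%, 0.00681% and 0% of all genes). With limma, 0 had an unadjusted p under 0.05 (3.56% of all genes). Of the interferon genes themselves only Ifng had a row, and its 0 to 6 reads per library put it under the filter; the other 9 of that list were not analysed here. All 6 receptor chains had a lower mean in the 11B3-deleted group and none passed the test. For 5 of the 6 the lowest library was 11B3-deleted 1 (15.9% of all genes), whose list median was -0.68. That library also had the highest summed value of erythroid markers, at 189133, and the lowest of myeloid progenitor markers, at 178625. The part of cell makeup in the receptor values was not tested. Il10rb, a chain of the type III receptor, had the smallest p of the 6 chains. It stood at 1516 ± 465 in the 11B3-deleted and 2148 ± 458 in the p53-loss-only group (mean ± SD, n = 4 each), and its log2 difference was -0.53 (limma adjusted p = 0.996). Ifngr1, which binds interferon gamma, stood at 13332 ± 4961 against 20798 ± 10701, and Ifnar2, a type I receptor chain, at 4684 ± 1428 against 5227 ± 507. Without 11B3-deleted 1 the log2 difference of Il10rb went from -0.53 to -0.34 and that of Ifnar2 from -0.20 to -0.06, and without p53-loss-only 3 that of Ifngr1 went from -0.60 to -0.29.

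Of 13 kinases, interferon regulatory factors and inhibitors, 11 were lower on average and 2 higher in the 11B3-deleted group, and 0 were called. Jak2, a receptor kinase, was one of the higher, at 4698 ± 1078 against 3445 ± 376 (log2 difference 0.42, limma unadjusted p = 0.053, adjusted p = 0.996). Irf8, which directs monocyte and dendritic cell fate, stood at 10613 ± 1970 against 16661 ± 8308. Tyk2, the kinase of the type I receptor, stood at 3791 ± 355 against 5215 ± 2924, where p53-loss-only 3 alone reached 9573.6.

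Among 11 adaptors and Toll-like receptors, 6 were higher and 5 lower, with 0 called. Ikbke, a kinase that activates Irf3 and Irf7, stood at 3102 ± 1819 against 4408 ± 1282. Traf3, an adaptor, was the 1 gene of that list whose groups did not overlap (2.15% of all genes), at 2849 ± 135 against 2498 ± 84.7, a log2 difference of only 0.19 (adjusted p = 0.996 by limma), and Sting1, the adaptor of DNA sensing, stood at 2290 ± 758 against 2732 ± 262.

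Of 62 further interferon-induced genes listed, Trex1 was not analysed here and Tgtp1 lay under the filter, at 2.1 to 32.1. Of the 60 tested, 38 had a lower and 22 a higher mean, and 0 were called. Their library medians, from -0.45 in p53-loss-only 4 to 0.56 in 11B3-deleted 4, were highest in the same 3 libraries as those of the members, with p53-loss-only 3 (0.45) above p53-loss-only 1 (0.28). With Irf7, 30 of the 60 had r of at least 0.7. Cxcl10, a chemokine that draws T and NK cells, gave 28.3, 48.3, 15.5 and 277.0 against 146.7, 76.2, 169.9 and 141.6 (log2 difference -1.38, SE 0.80). Replicates 1 to 3 of the 11B3-deleted group lay under all p53-loss-only libraries and replicate 4 above them, so the groups overlapped. No share over all genes was worked out for such an order. Psme2, a proteasome activator subunit, stood at 2927 ± 315 against 3481 ± 314, and Sp110, a nuclear body protein, at 3292 ± 892 against 4013 ± 417.

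Outside the 36 genes, those whose log2 values correlated best with the members' library median were Oas1g (r = 0.993), Mid1ip1 (0.992), Iigp1 (0.979), Gm15899 (0.971), Pex6 (0.969), Iqgap2 (0.967), Pde6d (0.966), Flad1 (0.966), Sp100 (0.964) and Gad1-ps (0.964), all over 8 libraries. Of these 10, Oas1g, Iigp1 and Sp100 belong to the list of further interferon-induced genes. Oas1g gave 61.5, 55.9, 48.5 and 486.5 against 426.3, 90.0, 233.5 and 19.1. Sp100, a nuclear body protein, gave 3999, 6137.1, 3596 and 13300.7 against 10762.8, 5909.2, 9818.1 and 3031.7. The same 2 libraries were highest for both genes, as in the members' library median by which the genes were picked. That order is therefore no separate result.

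Markers of natural killer (NK) cells were high and low in nearly the same libraries as the interferon response genes. The 10 markers, all with reads in every library, had library medians of -0.26, -0.50, -1.34 and 1.17 in the 11B3-deleted and 1.06, 0.00, 0.92 and -1.35 in the p53-loss-only group. Their summed value ran from 307.1 to 2201.1 and from 371.8 to 1638.2, and 9 of the 10 had r of at least 0.7 with Irf7. Ncr1, an activating receptor that defines these cells, gave 15.6, 9.6, 6.8 and 48.9 against 82.6, 32.2, 107.4 and 8.5.

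The 12 myeloid progenitor markers were also highest in the 3 libraries with the most interferon response RNA, at 0.66, 0.58 and 0.44, with summed values of 178625 to 666086 and 220426 to 436871; 3 of the 12 had r of at least 0.7 with Irf7. No such order was seen for T cell markers (summed value 297.6 to 939.9 and 390.4 to 1033.8; 1 of 10 with r of at least 0.7). Plasmacytoid dendritic cells are known as strong producers of interferon. Of their 8 markers 6 were tested, none reached 0.7 with Irf7, the summed values were 1621.6 to 4396.8 and 1807 to 2763.2, and 1 marker had no read in some library.

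Monocyte and macrophage markers reached r of 0.7 with Irf7 for 3 of 12 genes. Their summed value was highest in the 3 libraries with the most interferon response RNA. It was 78872.6 in 11B3-deleted 4, 97914.6 in p53-loss-only 1 and 133091 in p53-loss-only 3, against 42109.1 to 59690.6 elsewhere. The list median did not keep that order, at 0.02 in 11B3-deleted 4 and 0.65 in p53-loss-only 2. Between the genotypes, 7 of these 12 markers had a lower and 5 a higher mean in the 11B3-deleted group. With limma 3 had an unadjusted p under 0.05 (3.56% of all genes) and 0 were called. The groups did not overlap for 2 of the 12 (2.15% of all genes). Neutrophil, erythroid and B cell markers reached r of 0.7 for 0 of 10 genes each. The B cell list was at 5.86 in 11B3-deleted 3 and between -1.70 and 0.81 elsewhere, and that library was among the low ones for the interferon response genes. The part of these cell types in the differences between libraries or genotypes was not tested.

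**Figure D5:**
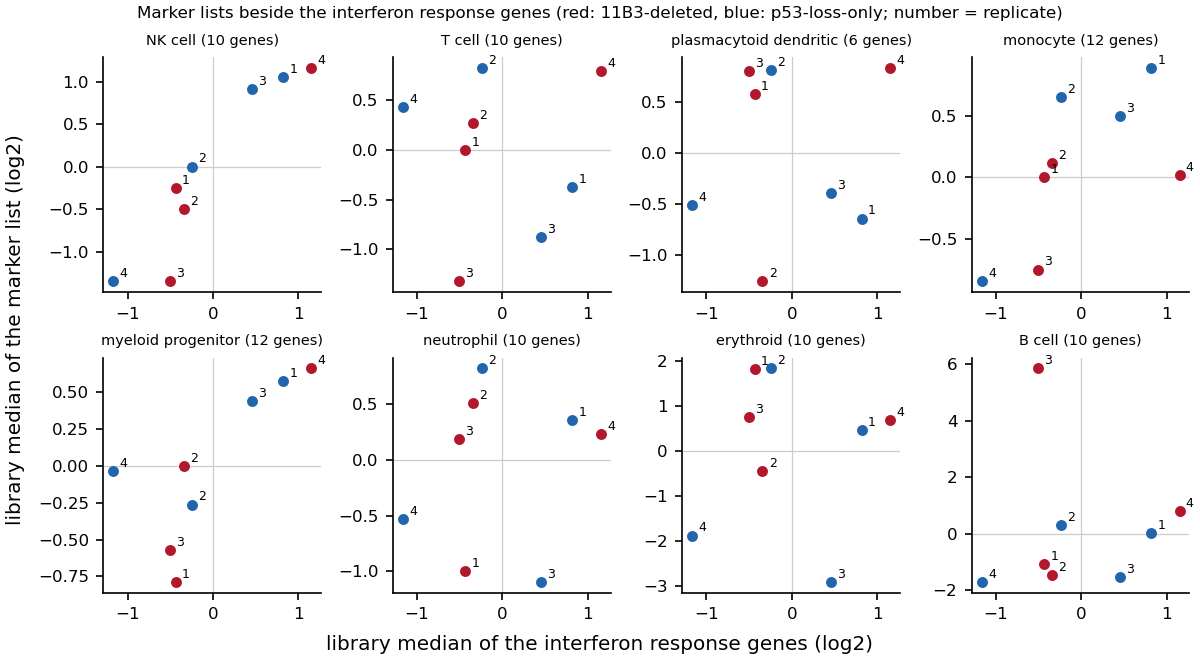
Library median of each marker list (y axis, log2 value minus the gene's mean over 8 libraries) against that of the 35 interferon response genes (x axis, same scale), 1 point per library labelled by replicate (red 11B3-deleted, blue p53-loss-only). NK cell markers run from about the lower left to the upper right, while 11B3-deleted 3 stands at 5.86 in the B cell panel.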

How the data were processed

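RNA was measured in 8 libraries, 4 per genotype, with groups taken from the sample titles. Tools listed in the submitters' processing notes are DESeq, HTSeq and STAR, and the build is mm9; neither their roles nor versions are stated there. The deposited signal values are each 1 plus a whole multiple of a step fixed within a library, as the values show. Whole reads were recovered from that step for 100% of values (tolerance 0.02). The 14679 genes that reached a deposited value of 10 in 4 or more libraries entered limma 3.58.1 (R 4.3.3). Values were log2-transformed with the deposited 1 as pseudocount, which understates folds of low genes, and the variance was allowed to follow a trend with the mean. Genotype was the only term, the test was two-sided, and Benjamini-Hochberg adjustment ran over all tested genes at 0.05. edgeR 4.0.16, DESeq2 1.42.0 and limma voom with sample weights on the recovered reads were alternatives. edgeR called 1 gene of all tested.

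The members and all gene lists were chosen with earlier results of these data known. Correlations with Irf7 were planned with adjustment over the members; the exact permutation p is given unadjusted and adjusted over all genes instead, because the members were chosen with results known. Genes named in full are Irf7, Irf9, Stat2, Isg15, up to 3 members per role group with the smallest p, members with an outlying library, and up to 3 genes of each pathway list; Zbp1, Rsad2 and others were also taken by their correlation, after their values were seen. Promoters printed are those of named members with ISRE letters, at most 6. Symbols were matched by name or Ensembl identifier, and beside those without a row or under the filter, 1 more gene of the pathway lists is not reported here. Each test script was first checked on simulated data. For the fits, the simulated spread between libraries was capped and only large changes were planted. That check therefore does not show how small a difference could be found at the spread of these libraries.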

Additional observations from a re-analysis of the deposited data

Results flagged for a closer look

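On the log2 scale, each group of 4 libraries was examined for a highest or lowest library whose gap to the nearest other exceeds the critical share of the group's range (Dixon's test at the 95% level). Of the 70 groups tested (35 genes in 2 genotypes), 3 had such a library, and chance flags about 1 in 20 groups.

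Mx2 stood at 300.1 in 11B3-deleted 4 and at 45.1 to 59.2 in the other libraries of that genotype, a gap of 0.857 of the group's range in log2 value. Rtp4 stood at 403.1 in the same library and at 41.9 to 53.7 in the others, a gap of 0.890 on that scale. Ifi35 was lowest in 11B3-deleted 2, at 538.0 against 1300.8 to 1489.9, a gap of 0.867 on the log2 scale.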

How the results depend on the processing

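In each alternative run, 0 of the members differed between the genotypes at an adjusted p under 0.05, and 0 of 559 values of the named genes did (smallest adjusted p = 0.613, limma, DESeq2 or edgeR). The library medians of the members kept their sign in each alternative and moved by less than 1 SD of the 4 medians of their genotype, though with 1 other library left out that of 11B3-deleted 1 ran from -0.55 to -0.19, that of 11B3-deleted 3 from -0.64 to -0.27, that of p53-loss-only 2 from -0.37 to -0.03 and that of p53-loss-only 3 from 0.26 to 0.70. Deviations of same-numbered libraries correlated at -0.03, -0.22, -0.41 and -0.24, so no pairing by replicate number was seen. A shared effect smaller than the spread between libraries could be missed by that check. With the replicate block limma called 0 of all genes and 0 members, as did edgeR with the replicate block, added after seeing the data. Calls over all genes, 2 as reported, were 58 with DESeq2, 1 with edgeR, 0 with limma voom and sample weights, 1 with a minimum value of 50, 1 with an added constant of 5, and 0 to 1 with each library left out.

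With each library left out, members with a lower mean numbered 9 to 29, members whose groups did not overlap 0 to 2, and the median pairwise correlation was 0.63 to 0.77. Without the 2 libraries farthest from the median of Irf7 that correlation was 0.54 (added after seeing the data), and 15 members had a positive correlation with Irf7 at an exact permutation p under 0.05, against 20 to 26 with 1 library left out. The cause of these shifts was not tested. No share over all genes was worked out for these counts of members, whether lower in mean, without overlap or correlated with Irf7. They therefore cannot be judged against a background.

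Of the 35 named genes 15 changed sign in some alternative, and only the differences of Jak2, Psme2 and Traf3 stayed within 1.5 times their value in each one run. The log2 difference of Irf9 was -0.0213 with DESeq2, -0.0336 with edgeR and -0.28 with voom, that of Ddx58 0.14, 0.14 and 0.27, and that of Usp18 -0.12 with voom and 1.80 with DESeq2. With voom that of Irf7 was -0.90, and with DESeq2 that of Cxcl10 was -0.54. With each library left out, log2 differences ran from -0.44 to 0.18 (Ddx58), -0.68 to 0.31 (Zbp1), -0.78 to 0.33 (Mx2), -1.08 to 0.49 (Irf7), -1.09 to 0.33 (Oasl2), -0.31 to 0.37 (Irf9), -0.11 to 0.40 (Irgm1), -0.0252 to 1.44 (Rtp4), -0.19 to 1.32 (Oas2), -0.0593 to 2.003 (Usp18), -0.0809 to 0.66 (Stat2), -1.89 to 0.13 (Ifi44), -0.38 to 0.00012 (Psmb8), -0.47 to 0.0115 (Tyk2) and -0.24 to 1.37 (Oasl1). Without turning, they ran from -1.28 to -0.04 (Isg15), -0.71 to -0.01 (Ifit2), -0.69 to -0.07 (Igtp), -0.49 to -0.0077 (Dhx58), -1.03 to -0.39 (Gbp3), 0.15 to 0.64 (Cmpk2) and -2.21 to -0.82 (Cxcl10). Few reads lay behind the lowest values of Ifi44 and behind all values of Ifng, and the 4 libraries per group limit the precision of every difference.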

Other observations

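The high value of Usp18 in 11B3-deleted 2 was looked at after its values were seen. In RefSeq order Tuba8, a tubulin, and Pex26, a protein of peroxisome import, are the neighbours on one side of Usp18, and Slc6a13 and Slc6a12, transporters, on the other. Tuba8 gave 29.3, 177.5, 30.1 and 216.7 in 11B3-deleted replicates 1 to 4 and 17.5, 34.9, 44.9 and 9.5 in the p53-loss-only ones. The 2 libraries in which Usp18 was highest, 11B3-deleted 2 and 4, were thus the 2 highest for Tuba8. Pex26 was also highest in 11B3-deleted 2, at 677.9 against 139.4 to 503.2 elsewhere, as were 18.3% of all tested genes. Slc6a13 was at 47.3 there, within its range of 7.6 to 327.1 in the other libraries. Slc6a12 was at 3.2 there, within its range of 1.0 to 157.1 elsewhere. No share over all genes was worked out for the top 2 libraries of Tuba8, and a link between Usp18 and its neighbours was not tested.

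Among the NK cell markers, Gzmb, a granule protease, gave 67.4, 78.5, 27.2 and 403.9 in the 11B3-deleted and 345.7, 57.9, 237.8 and 62.8 in the p53-loss-only libraries. Its 3 highest libraries were those in which Irf7 was highest. Gzma, another granule protease, gave 85.9, 40.8, 28.1 and 146.6 against 180.6, 47.8, 555.8 and 80.9, with p53-loss-only 3 the highest.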
